A study of Mus musculus with 8 samples.

Results

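The cytosolic heat shock response genes were measured in mouse embryonic fibroblasts (MEFs) exposed to RHPS4, a ligand of G-quadruplexes (G4, stacked folds of guanine-rich nucleic acid). They were chosen by name as the transcription factor Hsf1 and 9 chaperone and co-chaperone genes known as its targets, which makes 10 of the 24460 genes in the deposited counts. The fibroblasts were wild type, and by the labels the groups differed only in the dose, which was 0 µM in 3 libraries, 2 µM in 3 and 10 µM RHPS4 in the other 2. The labels give neither the strain nor the vehicle, and for the exposure they allow 16 or 24 h without saying which applied to these libraries. Nothing in them says that the libraries came from separate cultures, so the p-values measure the spread between these libraries, which may be technical. Nuclear ribosomal RNA was depleted from total RNA before sequencing. With 1 value per bulk library, fewer cells expressing a gene and less of its RNA per cell cannot be told apart.

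HSF1 is held inactive in unstressed cells by chaperones. When misfolded proteins engage those chaperones, HSF1 forms trimers, binds heat shock elements in DNA and drives transcription of chaperone genes. Its products include the HSP70 and HSP110 families, HSP90, the small heat shock proteins, J-domain proteins that deliver clients to HSP70, and exchange factors that release them. Fibroblasts are a common cell type for measuring this response, in which Hspa1a and Hspa1b are the classical inducible genes.

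The deposited values were counts of read fragments per gene, and total counts ran from 10455965 to 26688121 per library. In the smallest library, the first 0 µM replicate, 3 counts corresponded to 0.287 CPM (counts per 1000000 of the library), and such floors cover counting error only. CPM is used below after TMM scaling, which corrects for differences in library composition. The 8 fibroblast markers examined, which include Col1a1 and Pdgfrb, all passed the filter on low counts. Their summed level was 8482 to 9807 CPM at 0 µM, 7281 to 7985 CPM at 2 µM and 7438 to 8352 CPM at 10 µM. Epithelial, leukocyte, endothelial, skeletal muscle and erythroid marker lists each summed to at most 10.5 CPM in any library, and 2 of the 3 erythroid markers had 0 counts in every library. RNA from mitochondrial DNA made up 13.2 to 14.4% of the counts at 0 µM, 7.40 to 8.26% at 2 µM and 5.33 to 6.32% at 10 µM. The part of these shifts in the results below was not tested.

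A heat shock element consists of inverted units of GAA, and the stretches shown here are those that carry it near a start site of these genes, since HSF1 binds such elements. Of the 10 genes, 7 had promoter windows in RefSeq (250 bases before to 50 after each start, GRCm38.p6), namely Hspb1, Hsph1, Bag3, Dnajb1, Hspa4, Hspa1b and Hspa1a. The windows were searched for 2 inverted units, GAANNTTC or TTCNNGAA, each of which reads the same on both strands. Capitals mark the units.
Hspa1a, chr17:34972242-34972271, minus strand: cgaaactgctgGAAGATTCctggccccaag
Hspa1b, chr17:34959324-34959353, minus strand: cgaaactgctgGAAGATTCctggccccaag
Hspb1, chr5:135887791-135887820, plus strand: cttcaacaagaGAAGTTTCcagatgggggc
Hspb1, chr5:135887811-135887840, plus strand: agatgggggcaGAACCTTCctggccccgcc
Hsph1, chr5:149636351-149636380, minus strand: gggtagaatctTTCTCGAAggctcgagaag
Hsph1, chr5:149636287-149636316, minus strand: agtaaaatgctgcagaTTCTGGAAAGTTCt
Bag3, chr7:128523603-128523632, plus strand: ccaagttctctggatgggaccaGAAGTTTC
Hspa1a and Hspa1b carried the same 30 bases, with the element at positions −104 to −97 of either gene, counted from the start as 1 with no position 0. The elements of Hspb1 lay at −117 to −110 and −97 to −90. In Hsph1 the first element lay at −33 to −26 of the upstream of its 2 annotated starts, and the second, in which the patterns overlap to form TTCNNGAANNTTC, at positions 37 to 49, inside the transcript. That of Bag3 lay at 43 to 50, also inside it. No match was found in the windows of Dnajb1 and Hspa4, which says only that these letters are absent there. Among all 32851 windows of the table, 15.1% held the 2-unit pattern and 0.603% a pattern of 3 units (TTCNNGAANNTTC or GAANNTTCNNGAA), which among these genes was found in Hsph1 alone. A G4 pattern of 4 runs of at least 3 G separated by 1 to 7 bases was matched on either strand in 18.6% of all windows and, among the 7 genes, in Bag3 only.

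At 2 µM RHPS4 the heat shock genes were not called in either direction, and at 10 µM those that passed a threshold were all lower. To be called, a gene needed a fold over 1.5 with its adjusted p under 0.01. A softer threshold, an adjusted p under 0.05 with no minimum fold, is given beside it, and "fell" is used of genes that passed at least this one. Hspa1a did not pass the filter on low counts, so 9 of the 10 genes were tested. Between 2 and 0 µM, 0 of the 9 passed either threshold in edgeR, against 0.497% and 4.16% of the 14296 tested genes. DESeq2 likewise passed 0 of them. At an unadjusted p under 0.05 edgeR gave 4 of the 9, beside 21.3% of all tested genes, and DESeq2 4, beside 15.5%. The same 4 genes of edgeR were those whose libraries did not overlap between 0 and 2 µM, with Hspa4, Hsp90aa1 and Hsf1 higher and Bag3 lower, beside 12.7% of all tested genes higher and 12.9% lower without overlap. Between 10 and 0 µM, 1 gene was called, Bag3, and 5 of the 9 fell at the softer threshold, against 1.14% and 7.11% of all tested genes. All but Hspa1b and Hspb1 lay lower at 10 µM without overlap, 7 of 9 genes beside 20.0% of all tested genes. Between 10 and 2 µM, 1 gene was called lower, Hspa8, and 5 of the 9 passed the softer threshold as lower, against 1.59% and 11.9% of all tested genes. In 7 of the 9 the 10 µM libraries lay below those of 2 µM, beside 24.9% of all tested genes. The median log2 fold change of the 9 genes against 0 µM was 0.15 for the low dose and −0.38 for the high dose, and −0.48 from the low to the high dose, beside −0.01, 0.02 and 0.03 over all tested genes. Comparisons that share the same libraries are not independent of each other.

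**Figure D1:**
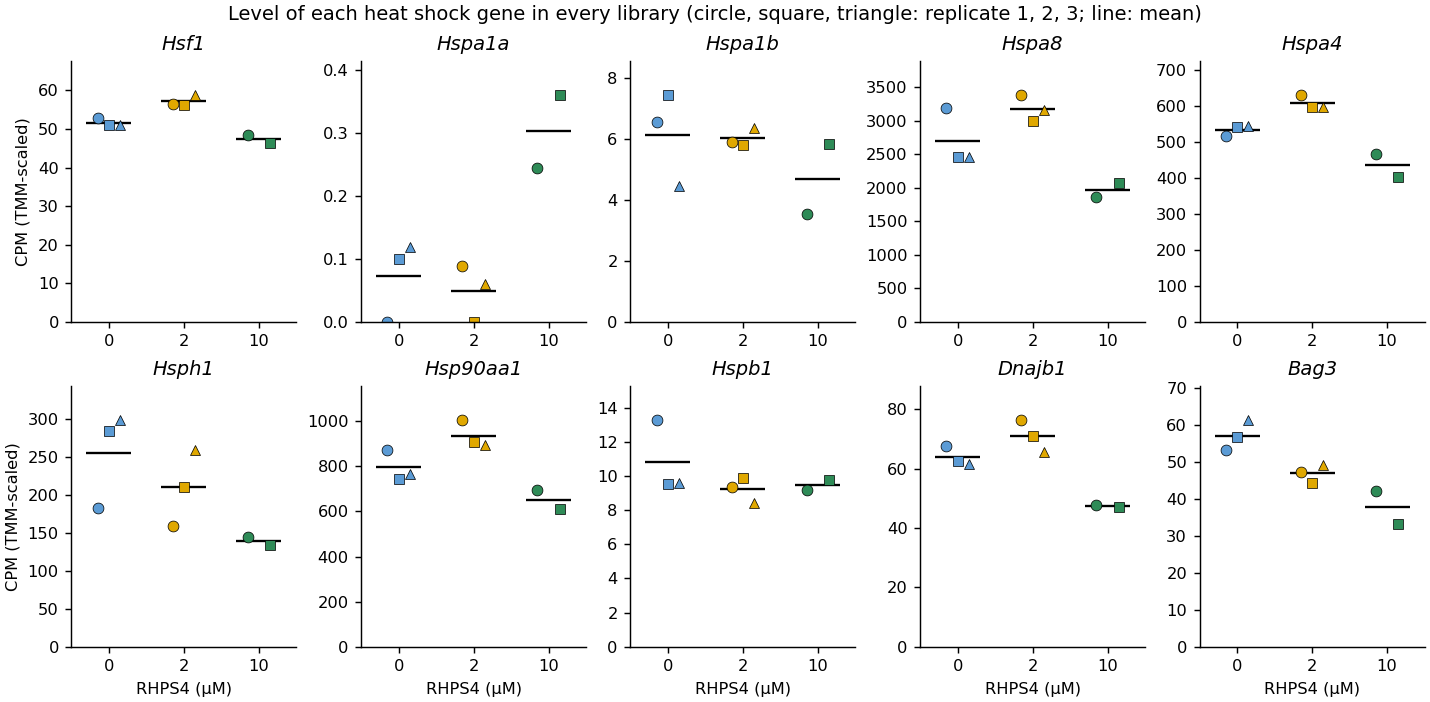
The level of each heat shock gene, in TMM-scaled CPM, is plotted for every library against the RHPS4 dose, with replicates 1, 2 and 3 as circle, square and triangle and the group mean as a line. Both 10 µM libraries lie below all others for Hspa8, Hspa4, Hsp90aa1, Dnajb1, Hsf1, Hsph1 and Bag3, while Hspa1a has at most 5 counts in a library.

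Hsf1, the transcription factor itself, lies on chromosome 15 of GRCm38 from 76477422 to 76501913. Its level was 52.7, 50.9 and 51.1 CPM in the 0 µM libraries, 56.4, 56.3 and 58.8 CPM at 2 µM, and 48.5 and 46.3 CPM at 10 µM. The groups were ordered 2 µM, 0 µM and 10 µM without overlap, over a narrow range. Against 0 µM the log2 fold change was 0.15 ± 0.0661 (SE of the fit, adjusted p = 0.22) at 2 µM and −0.12 ± 0.0743 (SE, adjusted p = 0.309) at 10 µM. Between the doses it was −0.27 ± 0.0746 (SE, adjusted p = 0.0232), a level 1.21-fold lower at 10 µM. It passed the softer threshold in 13 of 17 alternatives and missed it with total counts (−0.14, adjusted p = 0.184) and without the first 2 µM, the second 2 µM or the second 10 µM replicate (adjusted p = 0.052, 0.06 and 0.0978). HSF1 is regulated largely through its protein, by trimer formation and phosphorylation, which these counts do not measure.

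The inducible HSP70 genes Hspa1a and Hspa1b, neighbours on chromosome 17 at 34969190 to 34972156 and 34956436 to 34959238, were scarce at every dose. Hspa1a had 0, 2 and 3 counts in the 0 µM libraries, 1, 0 and 1 counts in those of 2 µM, and 4 and 5 counts in those of 10 µM. The pooled 9 counts at 10 µM against 5 at 0 µM gave a ratio of 3.27 with a 95% exact counting interval of 0.984 to 12.4, which includes 1. Against the pooled 2 counts at 2 µM the ratio was 6.01 with an interval of 1.24 to 57.2. Both 10 µM libraries thus had more Hspa1a counts than any other library, but all were at or near the floor of 3 counts, the intervals cover counting error only, and the gene was not tested. Hspa1b had 6.54, 7.43 and 4.45 CPM at 0 µM, 5.91, 5.79 and 6.36 CPM at 2 µM, and 3.54 and 5.83 CPM at 10 µM, so that the groups overlapped. Its log2 fold change was 0.00 at 2 µM (95% interval −0.47 to 0.47, adjusted p = 0.995) and −0.38 at 10 µM (95% interval −0.93 to 0.17, adjusted p = 0.341). The upper bounds of these intervals correspond to rises of 1.39-fold and 1.12-fold. The authors counted uniquely mapped fragments only, and 61.7% of the 75-base stretches (1 read length) of the Hspa1a transcript and 55.8% of those of Hspa1b occur identically in transcripts of other genes, mostly in each other. Their levels are therefore uncertain, and summing both genes, which restores no shared fragment, leaves essentially Hspa1b. No change of Hspa1b was detected, within the intervals given.

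Hspa8 encodes HSC70, the constitutive HSP70 that folds newly made proteins, and was the most abundant of the genes. It lies on chromosome 9 from 40800984 to 40810087. Its level was 3188, 2462 and 2453 CPM at 0 µM, 3385, 3004 and 3164 CPM at 2 µM, and 1866 and 2066 CPM at 10 µM. The first 0 µM replicate reached into the range of the 2 µM libraries, while both 10 µM libraries lay below all the others. Against 0 µM the log2 fold change was 0.24 ± 0.111 (SE, adjusted p = 0.244) at 2 µM and −0.46 ± 0.125 (SE, adjusted p = 0.0334) at 10 µM, where the level fell 1.37-fold. This fall missed the softer threshold in 5 of 17 alternatives, with total counts (−0.24, adjusted p = 0.142), in a fit of the 0 and 10 µM libraries alone (adjusted p = 0.0798), and without the second 2 µM, the first 10 µM or the second 10 µM replicate (adjusted p = 0.0593, 0.126 and 0.0783). From 2 to 10 µM it was 1.62-fold lower, with a log2 fold change of −0.70 ± 0.126 (SE, adjusted p = 0.00299), which was called. With total counts the log2 fold change was −0.56 and no longer past the minimum fold. It stayed past it when any 1 library was left out, but the call was lost without the first or the second 2 µM replicate (adjusted p = 0.0119 and 0.011) and without the first or the second 10 µM replicate (adjusted p = 0.0223 and 0.0118). Over all 17 alternatives the adjusted p ran from 1.52e-07 to 0.0223.

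Hspa4 and Hsph1 encode HSP110 proteins, relatives of HSP70 that act as its exchange factors. Hspa4, on chromosome 11 from 53259814 to 53300457, had 516, 541 and 543 CPM at 0 µM, 630, 597 and 597 CPM at 2 µM, and 467 and 403 CPM at 10 µM. None of its groups overlapped, with 2 µM highest and 10 µM lowest. The log2 fold change was 0.19 ± 0.0742 (SE, adjusted p = 0.175) at 2 µM, −0.30 ± 0.0836 (SE, adjusted p = 0.0375) at 10 µM, and −0.48 ± 0.084 (SE, adjusted p = 0.00233) between the doses. The last of these is 1.40-fold and so stayed under the minimum fold, and it was called only without the first 10 µM replicate, at −0.63. Against 0 µM, Hspa4 passed the softer threshold at 10 µM in 9 of 17 alternatives, with an adjusted p of 0.0122 to 0.489. It missed it without the second or the third 0 µM, the first or second 2 µM, or the second 10 µM replicate.

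Hsph1, on chromosome 5 from 149614287 to 149636376, had 182, 283 and 298 CPM at 0 µM, 159, 210 and 259 CPM at 2 µM, and 144 and 134 CPM at 10 µM. The first replicate was the lowest of its group at both 0 and 2 µM, and both 10 µM libraries lay below every other library. Its log2 fold change at 10 µM, −0.88, was the largest of the tested heat shock genes in that comparison, a fall of 1.84-fold, yet its standard error of 0.216 left an adjusted p of 0.021. Without the first 0 µM replicate, the smallest library, the change was −1.09 with an adjusted p of 0.00133, which was called, whereas without the second 10 µM replicate the adjusted p was 0.131, the highest of the 17 alternatives. The softer threshold was also missed without the second 0 µM, the third 0 µM or the first 10 µM replicate (adjusted p = 0.0681, 0.0661 and 0.0664). At 2 µM the log2 fold change was −0.28 (95% interval −0.69 to 0.13, adjusted p = 0.413), an interval that runs from 1.62-fold lower to 1.09-fold higher.

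Hsp90aa1 encodes the stress-inducible cytosolic HSP90, which matures kinases and steroid receptors and also binds HSF1. It lies on chromosome 12 from 110690605 to 110702728. Its level was 874, 745 and 766 CPM at 0 µM, 1005, 907 and 896 CPM at 2 µM, and 693 and 611 CPM at 10 µM. The groups did not overlap and followed the same order as for Hspa4. At 10 µM against 0 µM the log2 fold change was −0.29 ± 0.099 (SE, adjusted p = 0.0801) and missed the softer threshold. It passed it with the replicate block (adjusted p = 0.0306), DESeq2 (adjusted p = 0.0339) and no filter (adjusted p = 0.0364), while over all 17 alternatives the adjusted p reached 0.605. Between the doses it was −0.52 ± 0.0997 (SE, adjusted p = 0.00404), a level 1.44-fold lower at 10 µM, and was called only without the first 10 µM replicate, at −0.66.

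Dnajb1 encodes HSP40, the J-domain partner that stimulates the ATPase of HSP70. The gene lies on chromosome 8 from 83608193 to 83612653. Its level was 67.5, 62.6 and 61.5 CPM at 0 µM, 76.3, 70.8 and 65.4 CPM at 2 µM, and 47.6 and 47.1 CPM at 10 µM. The 0 and 2 µM libraries overlapped, whereas the 10 µM libraries lay close together and below the rest. The log2 fold change was 0.15 ± 0.0765 (SE, adjusted p = 0.279) at 2 µM and −0.43 ± 0.0872 (SE, adjusted p = 0.00855) at 10 µM, where the fall of 1.35-fold kept it from being called. The softer threshold was missed with total counts (adjusted p = 0.0831) and when the second 10 µM replicate was left out (adjusted p = 0.0573). Between 10 and 2 µM it was −0.58 ± 0.0876 (SE, adjusted p = 0.00108). This is 1.495-fold and lies just under the minimum of 1.5, and with 9 of the 17 alternatives Dnajb1 was called in this comparison. Among the 9 genes it had the smallest p.

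Bag3 encodes an exchange factor that couples HSP70 to the small heat shock proteins and to autophagy of misfolded proteins. It lies on chromosome 7 from 128523616 to 128546981. Its level was 53.2, 56.6 and 61.3 CPM at 0 µM, 47.2, 44.3 and 49.0 CPM at 2 µM, and 42.2 and 33.3 CPM at 10 µM. Here the groups followed the dose, with 0 µM highest and 10 µM lowest, and did not overlap. At 2 µM the log2 fold change was −0.29 ± 0.0964 (SE, adjusted p = 0.121). At 10 µM it was −0.60 ± 0.11 (SE, adjusted p = 0.00516), a fall of 1.51-fold, which was called by a small margin. Leaving out the second 0 µM, the third 0 µM, the second 2 µM or the second 10 µM replicate took the adjusted p to 0.0193, 0.0239, 0.0119 and 0.0543, and the last of these was the highest of the 17 alternatives, which began at 8.91e-05. The call was also lost with the replicate block (adjusted p = 0.0137), in a fit of the 0 and 10 µM libraries alone (adjusted p = 0.021) and with scaling by total counts (log2 fold change −0.38, adjusted p = 0.0235).

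Hspb1 encodes HSP25, a small heat shock protein that holds unfolded proteins and stabilizes actin. Located on chromosome 5 from 135887919 to 135889563, it had 13.3, 9.52 and 9.61 CPM at 0 µM, 9.34, 9.86 and 8.44 CPM at 2 µM, and 9.16 and 9.78 CPM at 10 µM. Apart from the first 0 µM replicate the libraries covered one narrow range. Its log2 fold change was −0.20 at 2 µM (95% interval −0.51 to 0.11), −0.15 at 10 µM (95% interval −0.49 to 0.19) and 0.04 between the doses (95% interval −0.31 to 0.40), with adjusted p values of 0.448, 0.551 and 0.875.

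**Figure D2:**
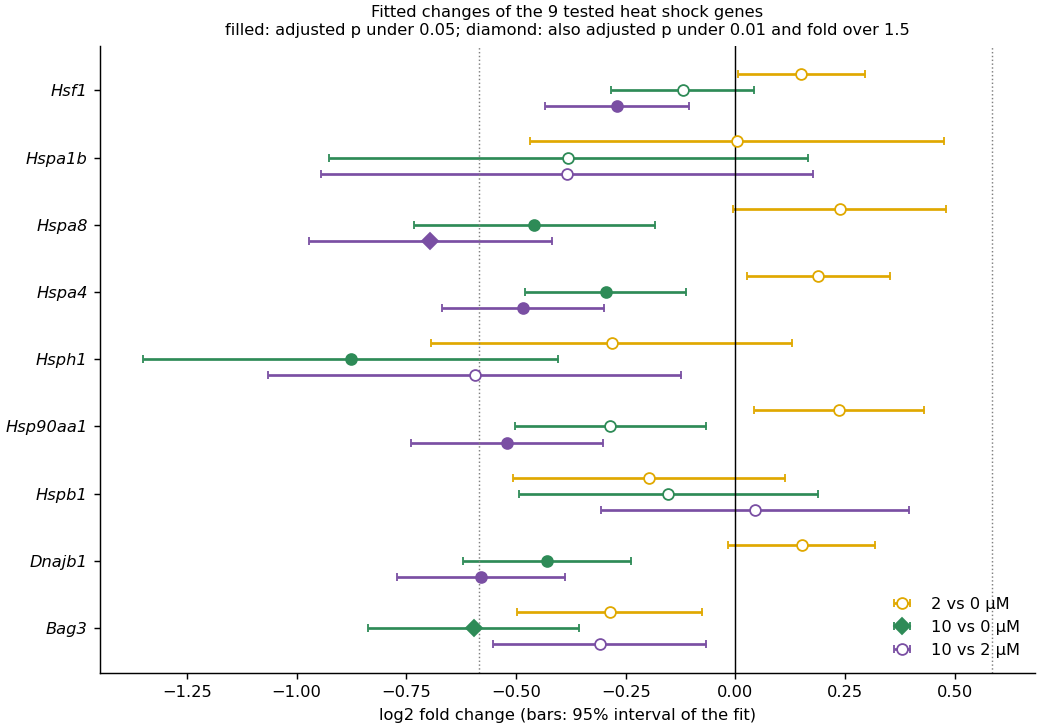
Fitted log2 fold changes of the 9 tested genes are shown with 95% intervals for 2 against 0 µM, 10 against 0 µM and 10 against 2 µM, with dotted lines at a fold of 1.5. Filled points had an adjusted p under 0.05 and lie left of 0 in all cases, and the diamonds are the called changes, Bag3 at −0.60 and Hspa8 at −0.70.

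None of the 9 intervals at 10 µM reached a rise of 1.5-fold against 0 µM, the highest upper bounds being 1.14-fold for Hspb1 and 1.12-fold for Hspa1b. At 2 µM the highest upper bounds were 1.40-fold for Hspa8, 1.39-fold for Hspa1b and 1.35-fold for Hsp90aa1. Each interval is for a single gene, without adjustment. Scaling by total counts instead of TMM moved the median log2 fold change of all tested genes at 10 µM by 0.21, to 0.23. On that scale Hsf1 and Hspb1 were slightly higher at 10 than at 0 µM, at 0.10 and 0.06, and the other 7 genes remained lower. Relative to the shifted median, all 9 genes were lower at 10 µM, from −0.14 for Hsf1 to −0.90 for Hsph1. Scaling moves all genes nearly alike, so these values repeat those under TMM (−0.14 and −0.89) and are no separate support. Under total counts 3 genes, Hsf1, Hspa4 and Hsp90aa1, passed the softer threshold as higher at 2 µM (adjusted p = 0.0439, 0.0434 and 0.0364 in that order). Without the first 0 µM replicate it was Hspa8 and Hsp90aa1 that passed it (adjusted p = 0.0149 and 0.028).

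Levels of different genes were compared per kb of exon, using the merged exons of each gene in GENCODE M21. These exceeded the longest transcript most for Hsf1 (7099 against 3133 bases) and Hsph1 (7266 against 4764 bases), which lowers their values here. The order by transcript length can differ and was not tested. At 0 µM the mean was 628 ± 98.0 CPM per kb for Hspa8 (SD, n = 3), followed by Hsp90aa1 at 202 ± 17.5, Hspa4 at 96.5 ± 2.70, Hsph1 at 35.0 ± 8.71, Bag3 at 22.3 ± 1.58, Dnajb1 at 19.9 ± 0.988, Hspb1 at 10.5 ± 2.09, Hsf1 at 7.27 ± 0.138 and Hspa1b at 2.19 ± 0.547. The libraries of Bag3 and Dnajb1 overlapped, and those of the other neighbours in this order did not. At 2 µM the Dnajb1 libraries, at 20.4 to 23.8 CPM per kb, lay above those of Bag3, at 17.3 to 19.1, and overlapped those of Hsph1, at 21.9 to 35.7. At 10 µM Hsph1 was still above Dnajb1 and Bag3, at 18.4 to 19.9 against 14.7 to 14.8 and 13 to 16.5 CPM per kb. Stretches found identically in transcripts of other annotated genes made up 41.3% of the Hspa8, 53.1% of the Hsp90aa1 and 47.3% of the Hspb1 transcript and 0% of those of Hsf1, Hspa4, Hsph1, Dnajb1 and Bag3. Unique mapping can understate the levels of the former to an unknown degree.

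In Hsf1, Hspa8, Hspa4, Hsp90aa1 and Dnajb1 the mean was highest at 2 µM and lowest at 10 µM, and Pearson's r between pairs of them, over log2 CPM in the 8 libraries, ran from 0.81 for Hspa8 with Hspa4 to 0.94 for Hspa8 with Dnajb1. Hsph1 and Bag3 had their highest mean at 0 µM and were correlated at 0.82. Between these 5 genes and Hsph1 or Bag3, r ran from 0.25 for Hsph1 with Hsp90aa1 to 0.58 for Hspa4 with Bag3, so that the groups were not cleanly split. Hspa1b, whose means at 0 and 2 µM were alike and whose libraries overlapped between all doses, correlated with the other genes at 0.16 to 0.60. Hspb1 correlated with no other member above 0.24. These values are descriptions, since the libraries share the doses and their scaling. In the first 0 µM replicate Hsf1, Hspa8, Hsp90aa1, Dnajb1 and Hspb1 were higher, and Hsph1, Bag3 and Hspa4 lower, than in both other 0 µM libraries.

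**Figure D3:**
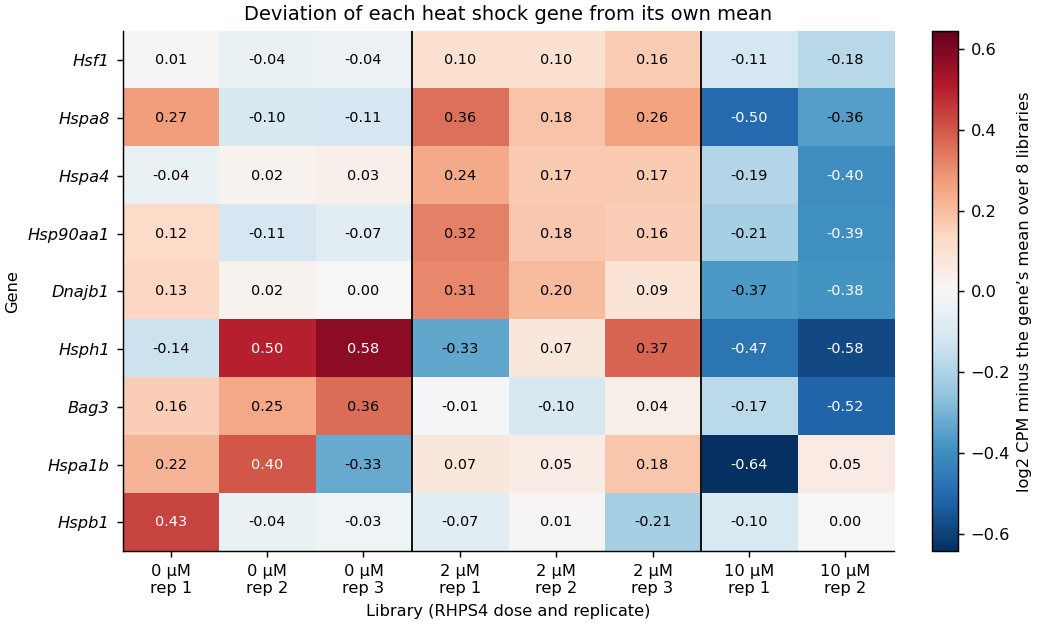
Each cell gives the log2 CPM of a gene in a library minus the mean of that gene over the 8 libraries, with libraries grouped by dose. The upper 5 genes are positive in all 2 µM and negative in both 10 µM libraries, whereas Hsph1 ranges from 0.58 in the third 0 µM replicate to −0.58 in the second 10 µM replicate.

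Among genes outside the list with a mean of at least 10 CPM, 8967 in all, those whose log2 CPM followed Dnajb1 most closely over the 8 libraries were Adrm1, a ubiquitin receptor of the proteasome, Pmf1, Bcar1, Zfp207 and Rad54l, with Pearson's r of 0.990 to 0.995. The genes closest to the mean standardized profile of the 9 tested genes were Slc20a2, Pcdh18, the D-loop RNA of mtDNA, Etv4 and Has2, with r of 0.991 to 0.993. With 8 libraries and this many candidates such values describe a shared order of the libraries only.

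The wider chaperone network was described by lists of related genes. HSP90 works with co-chaperones that load and release its clients. None of the 16 genes of this list, Hsp90ab1 included, passed the softer threshold at 2 µM. There 14 of the 16 had positive log2 fold changes, beside 6886 of all 14296 tested genes. At 10 µM 2 of the 16 fell at this threshold, beside 7.11% of all tested genes. Between 10 and 2 µM, 7 of the 16 were lower, beside 11.9% of all tested genes, with a list median of −0.26. Ptges3, the HSP90 co-chaperone p23, had 259, 267 and 285 CPM at 0 µM, 294, 280 and 283 CPM at 2 µM and 217 and 194 CPM at 10 µM. Both 10 µM libraries were below all others, a log2 fold change of −0.40 ± 0.0804 (SE, adjusted p = 0.00859). Stip1 encodes HOP, which bridges HSP70 and HSP90, and changed by −0.31 ± 0.0925 (SE, adjusted p = 0.0441) at 10 µM and by −0.49 between the doses (adjusted p = 0.00384).

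TRiC is the cytosolic chaperonin that folds actin and tubulin, and prefoldin delivers its clients. In this list 13 of 14 genes had positive log2 fold changes at 2 µM, beside 6886 of all 14296 tested genes, with a list median of 0.22. Of the 14, 7 lay higher without overlap, beside 12.7% of all tested genes, yet 0 passed the softer threshold. Against 0 µM, 0 passed it at 10 µM. Between the doses 7 of the 14 were lower at that threshold, beside 11.9% of all tested genes, with a median of −0.25. Cct8 differed by −0.40 ± 0.0867 (SE, adjusted p = 0.0074) and Cct6a by −0.41 ± 0.0903 (SE, adjusted p = 0.00843).

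Among the other J-domain proteins 1 of 9 fell at 10 µM at the softer threshold and 2 of 9 were lower at 10 than at 2 µM, beside 7.11% and 11.9% of all tested genes. Dnaja1, the farnesylated HSP40 partner of HSC70, had 68.1, 88.5 and 88.7 CPM at 0 µM, 96.4, 97.4 and 86.5 CPM at 2 µM, and 64.4 and 48.0 CPM at 10 µM. It changed by −0.55 ± 0.14 (SE, adjusted p = 0.0254) at 10 µM and was called between the doses at −0.73 ± 0.141 (SE, adjusted p = 0.00427). Dnaja2 was lower at 10 than at 2 µM by −0.34 (adjusted p = 0.0382). Of the 9 exchange factors and HSP70 regulators, 1 rose at 2 µM and 1 fell at 10 µM, and 3 were lower at 10 than at 2 µM, beside 1.51%, 7.11% and 11.9% of all tested genes. Bag5 was the gene higher at 2 µM, by 0.49 ± 0.109 (SE, adjusted p = 0.0346), and Chordc1, an HSP90-binding protein, was lower at 10 than at 2 µM by −0.48 (adjusted p = 0.00272).

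Of the 6 other cytosolic HSP70 and HSP110 genes, 1 rose at 2 µM at the softer threshold, beside 1.51% of all tested genes. This was Hspa14, by 0.32 ± 0.0762 (SE, adjusted p = 0.0425), with 120, 117 and 109 CPM against 101, 89.6 and 87.6 CPM at 0 µM. Hspa14 was also the 1 of the 6 that was lower at 10 than at 2 µM, by −0.32 (adjusted p = 0.0204), beside 11.9% of all tested genes. Hspa2 had a log2 fold change of −0.45 at 2 µM and missed the softer threshold (adjusted p = 0.0774). In the list of other heat shock factors and proteins named for binding such factors, 0 of 5 passed the softer threshold in any comparison. Its genes with the smallest p, the factor Hsf5 and the binding protein gene Hsf2bp, stayed at or below 2.03 and 1.53 CPM. Of 7 other small heat shock protein genes 4 were tested, since Hspb2, Hspb3 and Hspb7 were below the filter. Of the 4, 1 rose at 10 µM at the softer threshold, beside 6.81% of all tested genes. This was Hspb11, by 0.40 ± 0.114 (SE, adjusted p = 0.0382), which despite its name belongs to the transport machinery of cilia. Hspb6, at −0.51 in the 2 µM comparison, missed the threshold (adjusted p = 0.0694).

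The list of ubiquitin and other genes linked to HSF1 held 8 members. At 10 µM P4ha2, Vcp and Rrad fell and Sqstm1 rose at the softer threshold, which 7.11% and 6.81% of all tested genes passed as lower and higher. P4ha2, a collagen prolyl hydroxylase subunit that is also regulated by hypoxia, was called at 10 µM with a log2 fold change of −0.84 ± 0.0861 (SE, adjusted p = 0.000114). It had already fallen at 2 µM, by −0.36 ± 0.0748 (SE, adjusted p = 0.027). No other gene of the 8 passed the softer threshold at 2 µM, where 379 of all 14296 tested genes fell. Sqstm1, the autophagy receptor p62 and also a target of NRF2, had 278, 228 and 234 CPM at 0 µM, 216, 214 and 218 CPM at 2 µM, and 313 and 365 CPM at 10 µM. It was called between the doses at 0.65 ± 0.0986 (SE, adjusted p = 0.0011). Sqstm1 was the only gene of the 8 that was called higher, and in that comparison 561 of all 14296 tested genes were called higher.

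Chaperones of other compartments were set beside the cytosolic genes. Of 12 chaperones and related proteins of the endoplasmic reticulum 0 passed the softer threshold at 2 µM and 1 fell at 10 µM, beside 7.11% of all tested genes, namely Dnajc3 with a log2 fold change of −0.30 ± 0.0746 (SE, adjusted p = 0.0209). Dnajb11 had a log2 fold change of −0.37 at 10 µM, which missed the threshold (adjusted p = 0.0555), and was lower at 10 than at 2 µM by −0.47 (adjusted p = 0.0145). In all, 11 of the 12 log2 fold changes at 10 µM were negative, beside 6847 of all 14296 tested genes, with a list median of −0.20. Without overlap 8 of the 12 lay lower, beside 20.0% of all tested genes. Between the doses 4 of the 12 were lower at the softer threshold, beside 11.9%. In the mitochondrial chaperone and protease list 3 of 11 genes rose at 10 µM at the softer threshold, beside 6.81% of all tested genes, and 0 fell, with a list median of 0.08. Without overlap 6 of the 11 lay higher and 1 lower at 10 than at 0 µM, beside 3271 and 2860 of the 14296 tested genes. Between the doses 3 of the 11 were higher and 1 lower at the softer threshold, beside 1646 and 1700 of all tested genes. There 6 lay higher and 5 lower without overlap, beside 3854 and 3553. Dnaja3, the mitochondrial J-domain protein TID1, rose by 0.49 ± 0.0837 (SE, adjusted p = 0.00354), and Hspa9, the mitochondrial HSP70, by 0.43 ± 0.095 (SE, adjusted p = 0.0128), with 1249 and 1144 CPM at 10 µM against 968, 854 and 842 CPM at 0 µM. The difference between the compartments was not tested.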

How the data were processed

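The authors trimmed the 75-base paired reads with Trim Galore and cutadapt, aligned them to mm10 with STAR 2.5.2a and used featureCounts to assign uniquely mapped fragments to genes. The annotation and strand setting are not given in the sources used here. The deposited values were raw counts, with 1 file per library.

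For the tests, edgeR 4.0.16 under R 4.3.3 was applied to these counts (TMM, filterByExpr, glmQLFit, glmQLFTest), over all 8 libraries with dose as the only factor, and p-values were adjusted by Benjamini-Hochberg over the 14296 tested genes. The study's own method was DESeq2, from which the thresholds were taken. DESeq2 1.42.0 served as an alternative. The standard error was the log2 fold change divided by the square root of F. Correlations and log2 CPM used a prior count of 2. The procedure was also run on simulated counts, which checks that the code works. How often it detects changes as small as those reported here was not tested. No 2 libraries of a group agreed within sampling noise (chi-square per degree of freedom 3.23 to 20.2). The highest values, 15.4 and 20.2, were those of the first 0 µM replicate against the second and the third, which had 3.23 between them.

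The genes and lists were chosen with earlier results of these data known. Besides the 10 genes, the rule named the called genes of each list and the 2 with the smallest p, and the 5 genes most like Dnajb1 and the mean profile. The alternatives were RLE, total counts, TMM over nuclear genes, no filter, at least 10 counts in every library, DESeq2, only the 2 groups compared, the replicate block, Hspa1a and Hspa1b summed, and each library left out.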

Additional observations from a re-analysis of the deposited data

How the results depend on the processing

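Between 2 and 0 µM 0 heat shock genes were called under any alternative. At the softer threshold total counts gave 3 in place of 0 and leaving out 1 library 0 to 2, the 2 without the first 0 µM replicate. Between 10 and 0 µM the 1 call became 0 with total counts, only the 2 groups compared or the replicate block, 2 with no filter and 5 at the softer threshold, and 0 to 2 when 1 library was left out. The 5 genes at the softer threshold became 2 with total counts, 3 with only the 2 groups compared and 0 to 5 when 1 library was left out, the 0 without the second 10 µM replicate. Between 10 and 2 µM the 1 call became 0 with total counts, 2 with RLE, TMM over nuclear genes, no filter, DESeq2 or the replicate block, 5 at the softer threshold, and 0 to 3 when 1 library was left out. The cause was not tested.

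The direction turned for Hsf1 (0.10) and Hspb1 (0.062) at 10 against 0 µM with total counts. For Hspb1 between 10 and 2 µM it turned with the replicate block (−0.030), with a range of −0.045 to 0.092 when 1 library was left out. For Hspa1b at 2 against 0 µM, where the fitted value was 0.0034, it turned with at least 10 counts in every library (−9.77e-05), DESeq2 (−0.0084) and the summed pair (−0.0048), with a range of −0.23 to 0.21 when 1 library was left out.

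Over all genes, DESeq2 called 109 against 71 between 2 and 0 µM, and total counts 914 against 442 between 10 and 0 µM. Leaving out 1 library moved these counts to 6 to 144 and to 235 to 633, the lowest without the second 2 µM and the second 10 µM replicate and the highest without the first 0 µM replicate, and moved the 788 between 10 and 2 µM to 444 to 884. Same-numbered libraries deviated together at 0.0845 to 0.199 between 0 and 2 µM, and differently numbered ones at −0.154 to 0.0584. Deviations were taken from each group's mean and cancel out within the group, so these values are tied to each other. With 10 µM the same-numbered values were −0.145 to −0.021, but the deviations of its 2 libraries mirror each other by construction. Whether the numbers pair the libraries was not tested. The replicate block called 322 genes in place of 442 between 10 and 0 µM. Depth limits Hspa1a, with at most 5 counts in a library, and Hspa1b, and 2 libraries at 10 µM limit every comparison with that dose.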
